A study of Sus scrofa with 20 samples.

Results

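hsa-miR-191-5p, hsa-miR-340-5p, hsa-miR-340-3p and hsa-miR-199b-3p were followed in peripheral blood mononuclear cells (PBMCs) of pigs before and after an intracerebral hemorrhage (ICH), a bleed into the brain. These 4 entries were picked by name from the 608 miRNAs in the counts made against the human miRNA reference. Their 3 pig-reference counterparts, ssc-miR-191, ssc-miR-340 and ssc-miR-199a-3p@, were picked from the 284 entries of the pig table as a check on the same reads. All 7 entries passed the filter on low counts. The Control group held 10 libraries from untreated blood drawn before the hemorrhage, and the ICH group held 10 libraries from blood drawn 6 h after it. Both groups came from female American Yorkshire pigs of 80 to 90 days and 36 to 41 kg, and the bleed was made with autologous blood, injected through a burr hole into white matter of the frontal lobe. Libraries with the same replicate number, 1 to 10, were treated as pairs. A sham group was not analysed here, and the bleed cannot be told apart from surgery, anesthesia or the time between the draws. Blood from before the injury is the only baseline.

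MicroRNAs are short RNAs that are cut from a hairpin precursor and guide a silencing complex to messenger RNAs that pair with them. The names 5p and 3p mark the arm of the hairpin that the mature RNA comes from, and usually one arm is kept and the other degraded. miR-191, miR-340 and miR-199 have been described among the miRNAs of platelets, small cell fragments that PBMC preparations by density gradient can carry along. None of them is restricted to platelets. miR-191 is expressed across blood lineages and many tissues and is often used as a reference RNA in blood studies. miR-340 is made from an intron of RNF130 in the human genome. miR-199 is best known from mesenchymal cells, and the 3p arms of miR-199a and miR-199b have the same mature sequence.

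In the RefSeq gene table of the pig build Sscrofa11.1, MIR191 lies on chromosome 13 at 31655484 to 31655563, within the interval of DALRD3. MIR425 lies within the same host gene at 31654994 to 31655073, with 410 bases between the hairpins. The miR-199 hairpins lie within dynamin genes: MIR199A-1 within DNM3 on chromosome 9 (114533783 to 114533858), MIR199A-2 within DNM2 on chromosome 2 (69558051 to 69558130) and MIR199B within DNM1 on chromosome 1 (268691520 to 268691593). MIR214 is also within the DNM3 interval, with 5681 bases between it and MIR199A-1. That table gives gene intervals without exons, so exonic and intronic positions were not assigned.

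The libraries held 919313 to 2177834 human-reference reads, and depth was alike in the groups (medians of 1250180 in Control and 1382450 in ICH). Levels below are CPM (reads of a miRNA scaled to a common library size), made comparable between libraries by edgeR's TMM method, and they compare ligated and sequenced reads, since the efficiency of capture differs between miRNAs. In PBMCs, fewer cells of a type and less RNA per cell cannot be told apart. Replicate number 4 stood apart in markers of other cells. From Control to ICH its miR-451a went up by 3.18 and its miR-223-3p by 1.97 on the log2 scale, above every other number. Values without it are given below for part of the results, and in correlations it is left out only together with another number.

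The members differed in level by more than 3 orders of magnitude, and their order was the same in every library. miR-191-5p was highest, followed by miR-340-5p, miR-340-3p and miR-199b-3p, and the ranges of neighbours in this order did not overlap over the 20 libraries. miR-191-5p ranged from 36426 to 54175 CPM in Control (median 43225) and from 39457 to 53141 CPM in ICH (median 43929). By number of reads it was the 5th or 6th most abundant of all human-reference entries in each of the 20 libraries, with 3.80% to 5.63% of reads. miR-340-5p ranged from 2330 to 3825 CPM in Control (median 3449) and from 2050 to 3825 CPM in ICH (median 3541). Its rank by reads was 30 to 46. The other arm of the same hairpin, miR-340-3p, ranged from 85.5 to 230 CPM in Control (median 175) and from 140 to 202 CPM in ICH (median 190.1). miR-199b-3p was scarce, with 6.45 to 18.5 CPM in Control (median 15.1) and 5.29 to 33.5 CPM in ICH (median 16.8). For all 4 members the ranges of Control and ICH overlapped, which describes levels only, since overlap was not counted over all miRNAs tested. All 10 ICH libraries lay within the Control range for miR-191-5p and miR-340-3p, 8 did for miR-340-5p and 6 for miR-199b-3p.

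**Figure D1:**
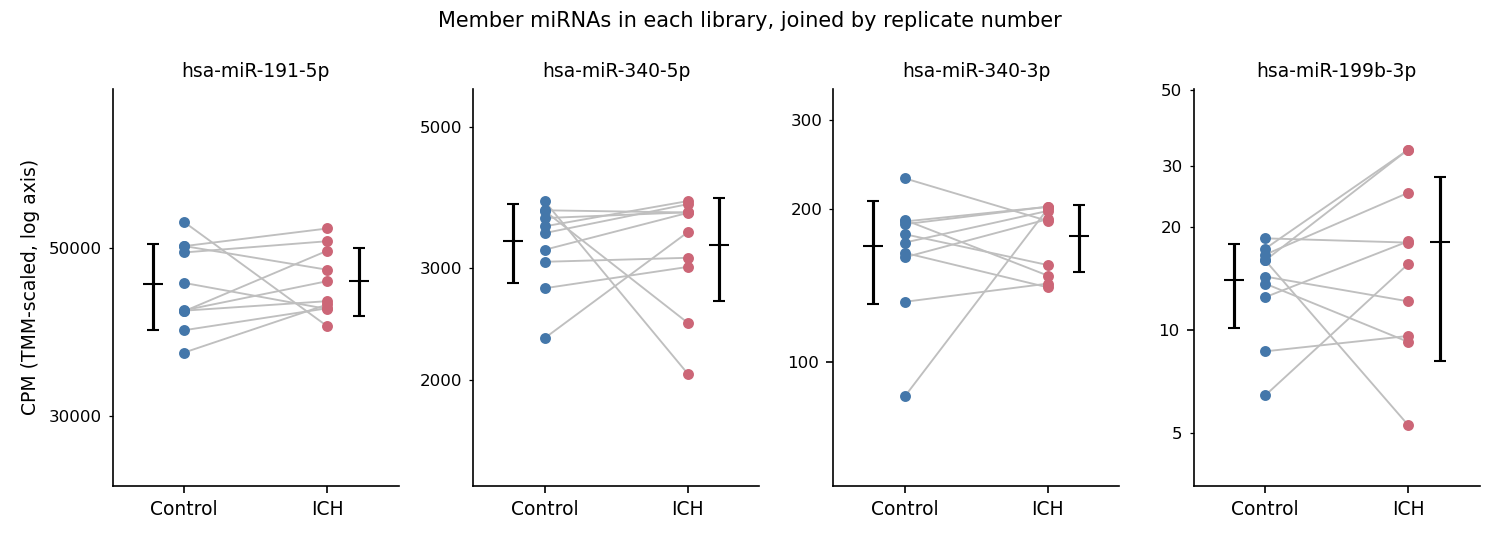
Each panel plots 1 member's CPM on a log axis in the 10 Control and 10 ICH libraries, with grey lines joining libraries of the same replicate number and black bars giving mean ± SD. The groups overlap in every panel, from miR-191-5p at 36426 to 54175 CPM in Control down to miR-199b-3p at 6.45 to 18.5 CPM.

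The first comparison asked whether the members' levels were different 6 h after ICH. None of the 4 human-reference members passed the test, at an adjusted p of 0.05 in edgeR's quasi-likelihood test with the replicate number as a block and Benjamini-Hochberg adjustment over all 245 miRNAs tested. Of those 245, 19.2% passed, and 3.67% passed in the fit without the block. DESeq2 and limma voom each called 47 of the 245 at that threshold, and 0 of the 4. The fit without the block also called 0 of the 4. The smallest unadjusted p of the 4 was 0.203 (edgeR with the block). With so few members, a count of 0 is near these shares and is not read as a result about them. The entries are read against intervals rather than against the p-values, because a p above the threshold does not show that levels were equal.

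The mean of miR-191-5p was 44886 ± 5870 CPM before and 45353 ± 4655 CPM after ICH (SD over 10 libraries each). Its fold change was 1.01, with a 95% interval of 0.896 to 1.15 (log2 fold change 0.02 ± 0.086 SE; edgeR adjusted p = 0.936). It was higher after ICH in 7 of 10 pairs under TMM, but by percent of reads in 3 of 10, so neither direction held across scalings.

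miR-340-5p had a mean of 3311 ± 470 CPM before and 3268 ± 605 CPM after ICH. The fold change was 0.981, with an interval of 0.838 to 1.15 (edgeR adjusted p = 0.924). It was higher in 7 of 10 pairs under TMM and in 4 of 10 by percent of reads, while the 2 largest changes were decreases, of 0.90 in number 1 and 0.58 in number 6 on the log2 scale. In number 1 the library drawn after ICH had 1939 reads, the lowest of all 20.

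miR-340-3p had a mean of 169 ± 38.6 CPM in Control and 177 ± 26.8 CPM in ICH, with a fold change of 1.06 and an interval of 0.890 to 1.26 (edgeR adjusted p = 0.712). It was higher in 6 of 10 pairs under TMM and in 4 of 10 by percent of reads. The largest within-pair difference, 1.22 on the log2 scale, was in number 8. The Control library of that number had 96 reads of miR-340-3p, the fewest of the 20 libraries, and the other changes lay between -0.36 and 0.25.

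miR-199b-3p had a mean of 13.98 ± 3.84 CPM in Control and 18.001 ± 9.89 CPM in ICH. The fold change of 1.22 had the widest interval of the 4 members, 0.894 to 1.65 (edgeR adjusted p = 0.41), so both a level slightly below that of Control and one well above it are within the interval. It was higher in 6 of 10 pairs, both under TMM and by percent of reads. The log2 fold change of 0.28 was 0.14 without number 2 and also without number 3, and 0.18 without number 10. Read numbers were 9 to 41 in Control and 5 to 45 in ICH. The 5 reads of ICH replicate 1 have an exact Poisson 95% interval of 1.62 to 11.7 reads, and the 45 reads of ICH replicate 3 one of 32.8 to 60.2 reads; these cover counting error only. Counting alone would give a standard deviation of 0.50 for a log2 change within a pair, against the 0.77 observed.

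The pig-reference entries came from nearly the same reads and are not independent evidence. ssc-miR-191 held 99.999% of the human-reference reads of miR-191-5p, with at most 2 reads of difference in any library. ssc-miR-340 held 99.94% of the reads of miR-340-5p. ssc-miR-199a-3p@, whose suffix is not explained in the sources used here, had exactly the counts of miR-199b-3p in all 20 libraries. A pig-reference entry for miR-340-3p was not analysed here. Of the 3 pig-reference members 0 passed the test (edgeR), where 21.8% of 179 miRNAs passed with the block and 0 without it. DESeq2 called 46 of the 179 and limma voom 42, and each called 0 of the 3 members. Their fold changes were 0.968 for ssc-miR-191 (interval 0.860 to 1.09), 0.937 for ssc-miR-340 (0.788 to 1.11) and 1.16 for ssc-miR-199a-3p@ (0.844 to 1.60). For miR-191 the direction differed between the references under TMM and under upper-quartile scaling. The latter gave log2 fold changes of -0.095 for hsa-miR-191-5p and 0.070 for ssc-miR-191. With TMM, ssc-miR-191 was higher after ICH in 3 of 10 pairs, against 7 of 10 for hsa-miR-191-5p. By percent of reads both were higher in 3 of 10. Under TMM ssc-miR-340 and ssc-miR-199a-3p@ were each higher in 6 of 10 pairs, and by percent of reads in 3 of 10 and 6 of 10.

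Among the human-reference members, the sign of the changes of miR-191-5p and miR-340-3p depended on the scaling between libraries. The log2 fold change of miR-340-5p stayed negative, at -0.03 under TMM and -0.14 under both library totals and upper-quartile scaling. Against TMM, library totals lowered the median log2 fold change of all human-reference miRNAs by 0.11 and upper-quartile scaling by 0.12. The log2 fold change of miR-191-5p went from 0.02 to -0.09 and -0.10 under these scalings, and that of miR-340-3p from 0.08 to -0.02 and -0.03. A change of scaling shifts all miRNAs by about the same amount, so each member's distance from the median of all miRNAs tested is given as a position among them. Over TMM, library totals, upper-quartile scaling and DESeq2's size factors, miR-191-5p stood at -0.0087 to -0.0055 from the median, miR-340-5p at -0.058 to -0.052, miR-340-3p at 0.056 to 0.060 and miR-199b-3p at 0.24 to 0.27.

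**Figure D2:**
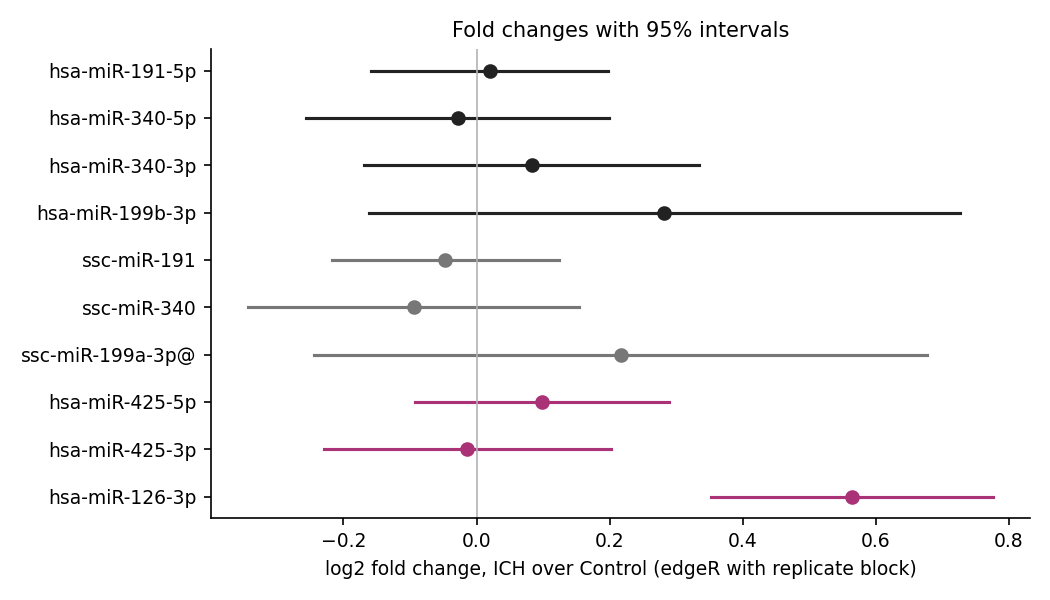
Points are log2 fold changes of ICH over Control from edgeR with the replicate block, and lines their 95% intervals, for human-reference members (black), pig-reference members (grey) and the comparison miRNAs miR-425 and miR-126-3p (purple). The intervals of all 7 members and of both miR-425 arms span 0, and that of miR-126-3p (0.35 to 0.78) does not.

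The members varied to different degrees between libraries of a group. The within-group SD of log2 CPM was 0.17 for miR-191-5p, and 240 of the 245 miRNAs tested had a larger one (median 0.38). It was 0.26 for miR-340-5p, 0.32 for miR-340-3p and 0.63 for miR-199b-3p, with 201, 166 and 24 of 245 larger. Scarce miRNAs have more counting error, and the coefficient of variation from counting alone was 0.411% for miR-191-5p, 1.55% for miR-340-5p, 6.76% for miR-340-3p and 24.4% for miR-199b-3p.

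The hairpin mates and neighbours were then examined. miR-191-3p, the other arm of miR-191, had 16 reads in all 20 libraries together, against 1246893 of miR-191-5p. The 5p arms of miR-199 were scarcer than the 3p arm: miR-199a-5p had 40 reads and miR-199b-5p 85, together 125, against 444 of miR-199b-3p. Since miR-199a and miR-199b share the 3p sequence, those 444 reads cannot be assigned to either. miR-214-3p, whose hairpin lies near MIR199A-1, had 1 read. miR-191-3p, both miR-199 5p arms and miR-214-3p were too scarce to be tested. miR-425-5p, from the hairpin next to miR-191, was well covered, at 796 ± 143.98 CPM (SD) before and 847 ± 99.7 CPM after ICH. It did not pass the test either (log2 fold change 0.10 ± 0.093 SE, edgeR adjusted p = 0.541), nor did miR-425-3p (-0.01 ± 0.10, edgeR adjusted p = 0.956).

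Ratios within a library need no scaling between libraries, and 6 were compared between the groups over the 10 pairs. An exact sign-flip test (two-sided, Benjamini-Hochberg adjustment over the 6) is given for the 2 ratios without miR-126-3p. miR-340-5p outnumbered miR-340-3p in every library, by 10.1 to 39.5 times (median 18.4). The arms' log2 ratio had a Control mean of 4.31 ± 0.43 and an ICH mean of 4.19 ± 0.39 (SD over 10 libraries). The difference of -0.12 ± 0.20 (SE), with 5 pairs higher and 5 lower, did not pass (exact sign-flip test, adjusted p = 0.549). The log2 ratio of miR-191-5p to its neighbour miR-425-5p was 5.82 ± 0.41 in Control and 5.74 ± 0.24 in ICH. Its difference of -0.08 ± 0.13 (SE) also did not pass (exact sign-flip test, adjusted p = 0.549).

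The label of these miRNAs links them to platelets, so they were set beside miR-126-3p, an miRNA of platelets and endothelial cells. miR-126-3p went from 301 ± 71.3 to 440 ± 81.2 CPM and was higher after ICH in 10 of 10 pairs (log2 fold change 0.56 ± 0.10 SE, edgeR adjusted p = 0.000415). Its scarce hairpin mate miR-126-5p, with means of 11.4 and 14.7 CPM, was higher in 5 of 10 pairs. It did not pass (0.38 ± 0.22 SE, edgeR adjusted p = 0.26). That miR-126-3p rises in these data was known when the ratios to it were chosen. With members near 0 the ratios largely restate that rise, so they are given as a description with no test. The log2 ratio of miR-191-5p to miR-126-3p was 7.25 ± 0.45 in Control and 6.70 ± 0.27 in ICH, lower in 10 of 10 pairs (mean difference -0.54 ± 0.11 SE). The ratio of miR-340-5p to miR-126-3p was lower in 8 of 10 pairs (-0.59 ± 0.21) and that of miR-340-3p in 9 of 10 (-0.47 ± 0.15). The ratio of miR-199b-3p to miR-126-3p was lower in 6 of 10 pairs (-0.35 ± 0.31).

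**Figure D3:**
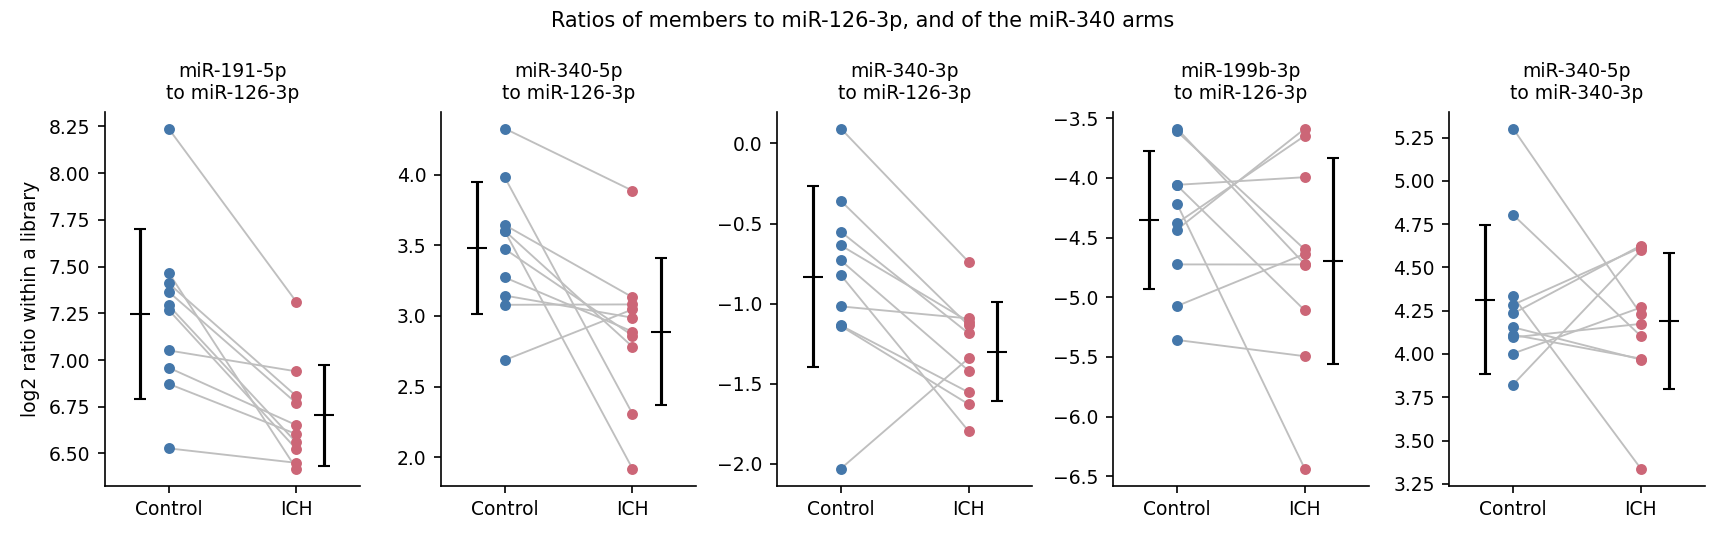
The first 4 panels plot the log2 ratio of each member to miR-126-3p within a library, and the last that of miR-340-5p to miR-340-3p, with grey lines joining replicate numbers and black bars for mean ± SD. Lines go down in 10 of 10 pairs for miR-191-5p and in 6 of 10 for miR-199b-3p, and the arm ratio goes up in 5 pairs and down in 5.

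Across libraries the levels of the members were then compared with that of miR-126-3p. After the group means were subtracted, Pearson's r with miR-126-3p over the 20 libraries was 0.04 for miR-191-5p, -0.32 for miR-340-5p, 0.04 for miR-340-3p and -0.01 for miR-199b-3p. These values describe libraries that come in pairs and share a scaling, and no test was made on them. With library totals the r of miR-191-5p with miR-126-3p was 0.36. Markers of platelets and vessel wall (both arms of miR-126) summed to 188 to 406 CPM in Control and 261 to 559 CPM in ICH, and both arms were detected in every library. The name platelet-linked thus rests on background knowledge, and the share of the members' reads that came from platelets was not tested.

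By the same measure, the miRNAs most like each member were named among the 226 others with a mean of at least 10 CPM. For miR-191-5p they were miR-193a-5p (r = 0.88), let-7d-3p (0.88) and miR-103a-3p (0.88). For miR-340-5p they were miR-4791 (0.73), miR-582-3p (0.68) and miR-140-3p (0.62). For miR-340-3p they were let-7a-5p (0.84), let-7a-3p (0.80) and miR-98-5p (0.73), and for miR-199b-3p miR-93-5p, miR-107 and miR-9-5p (0.65, 0.65 and 0.64). With library totals in place of TMM these 12 values were 0.41 to 0.85. miR-425-5p, the neighbour of miR-191, had an r of -0.51 with miR-191-5p under TMM and 0.14 with library totals.

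The within-pair changes of the members were compared with each other and with 4 markers, 22 relations in all over the 10 replicate numbers. miR-340-5p and miR-340-3p, arms of one hairpin, had a Pearson's r of -0.03 under TMM (permutation p = 0.932; Spearman's rho = 0.07, permutation p = 0.864). With library totals the r of the arms was -0.57 (permutation test, adjusted p = 0.326). The r of miR-191-5p with miR-340-5p likewise went from -0.05 to -0.62 with library totals (permutation test, adjusted p = 0.932 and 0.3005). miR-340-5p and miR-199b-3p had the highest r between members, at 0.78 (permutation p = 0.00856, adjusted p = 0.0628; rho = 0.66, permutation p = 0.0443, adjusted p = 0.162). It did not pass the adjustment and was 0.55 without numbers 1 and 6, the farthest from the median. miR-191-5p and miR-340-3p had an r of 0.66 (permutation p = 0.0712, adjusted p = 0.224) and the highest rho between members, 0.77 (permutation p = 0.0127, adjusted p = 0.0645). Their r was 0.48 without numbers 4 and 8 and 0.29 with library totals. miR-150-5p and miR-340-3p had an r of -0.79 (permutation p = 0.0236, adjusted p = 0.0865; rho = -0.76, permutation p = 0.0147, adjusted p = 0.0645), which was -0.45 without numbers 4 and 8 and -0.64 with library totals. With miR-126-3p, the change of miR-340-5p had an r of -0.73 (permutation p = 0.0154, adjusted p = 0.0846; rho = -0.77, permutation p = 0.0127, adjusted p = 0.0645), and -0.64 without the 2 farthest numbers.

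The change of miR-191-5p ran opposite to that of miR-223-3p, an miRNA of myeloid cells (r = -0.93, permutation p = 0.00025, adjusted p = 0.00396; rho = -0.93, permutation p = 0.00037, adjusted p = 0.00814). Without numbers 4 and 5 the r was -0.78. It also ran opposite to that of miR-150-5p, an miRNA of lymphocytes (r = -0.91, permutation p = 0.00036, adjusted p = 0.00396; rho = -0.79, permutation p = 0.00875, adjusted p = 0.0645), with -0.67 without numbers 4 and 8. Both relations depended on the scaling. With library totals in place of TMM the r was -0.36 with miR-223-3p (permutation test, adjusted p = 0.606) and -0.21 with miR-150-5p (permutation test, adjusted p = 0.765). Number 4 stood at the end of both relations, with changes of -0.46 in miR-191-5p, 1.97 in miR-223-3p and 0.41 in miR-150-5p. With miR-451a, an miRNA of red cells, the change of miR-191-5p had an r of -0.79 (permutation p = 0.0233, adjusted p = 0.0865; rho = -0.43, permutation p = 0.218, adjusted p = 0.399). It was -0.81 with library totals (permutation test, adjusted p = 0.0526) and -0.07 without numbers 4 and 5, so it rested on those numbers. Without the same numbers the r of miR-451a went from 0.36 to 0.83 with miR-340-5p and from -0.05 to 0.53 with miR-199b-3p. Neither relation passed the adjustment over all 10 numbers. The part of red cell, myeloid and lymphocyte RNA in the change of miR-191-5p was not tested.

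**Figure D4:**
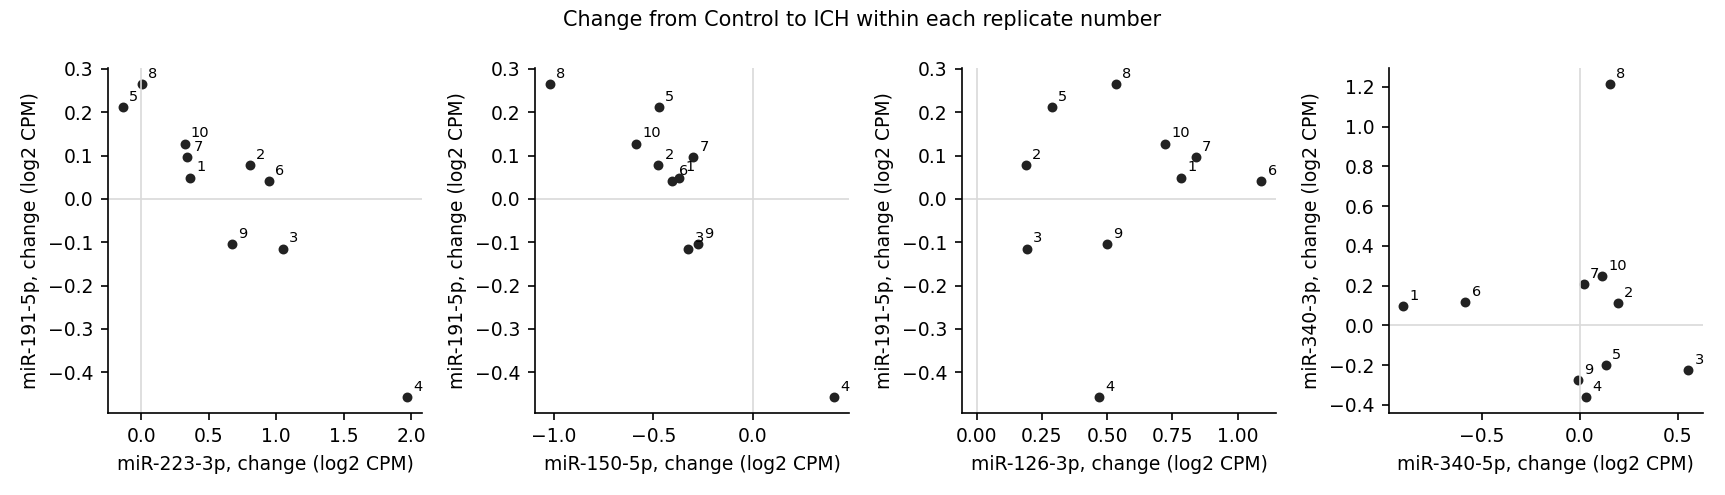
Each point is 1 replicate number, with the ICH minus Control difference in TMM-scaled log2 CPM of 2 miRNAs on the axes. miR-191-5p goes down along the axis of miR-223-3p (r = -0.93 under TMM, -0.36 with library totals) and of miR-150-5p, with number 4 at the end, while the r is 0.14 with miR-126-3p (0.51 with library totals) and -0.03 between the miR-340 arms (-0.57 with library totals).

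Other lists give the setting of these values; the lists and their members were chosen with earlier results of these data known. Of 19 other entries linked to platelets in the human-reference counts, 4 rose, 1 fell and 14 did not pass, with a median log2 fold change of 0.11 against 0.03 over all 245 miRNAs, of which 13.1% rose and 6.12% fell. Those that rose were miR-126-3p, miR-21-5p (0.58 ± 0.093 SE, edgeR adjusted p = 0.000153) and both arms of miR-223 (0.82 ± 0.12 for 5p and 0.63 ± 0.15 for 3p). miR-223 and miR-21 are abundant in leukocytes as well. The entry miR-151a-5p@ fell in 10 of 10 pairs (-0.38 ± 0.11, edgeR adjusted p = 0.0187). Those that did not pass included miR-24-3p at 0.11 ± 0.080, miR-26a-5p at -0.11 ± 0.091 and miR-423-3p at 0.03 ± 0.083.

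Red cell miRNAs, another possible source in PBMC preparations, had 2 of 6 entries that rose and none that fell (median 0.49). These were miR-486-5p (0.63 ± 0.13 SE, edgeR adjusted p = 0.00107) and miR-144-3p (0.47 ± 0.14, edgeR adjusted p = 0.0212), while miR-451a was at 0.64 ± 0.28 (edgeR adjusted p = 0.14). The others that did not pass were miR-144-5p at 0.51 ± 0.19, miR-363-5p at -0.02 ± 0.17 and miR-363-3p at -0.16 ± 0.085. miR-363-3p was higher after ICH in only 2 of 10 pairs. Of the lymphocyte list 3 of 9 fell and 0 rose (median -0.32), namely miR-150-5p, miR-181a-5p and miR-31-5p. In the same list miR-155-5p went the other way, at 0.20 ± 0.091 and higher in 9 of 10 pairs, but did not pass (edgeR adjusted p = 0.14). Of the myeloid list 3 of 7 rose and 0 fell (median 0.19), the miR-223 arms and miR-27a-5p. In the pig-reference counts, where the tested entries held no miR-223, 0 of 4 myeloid entries passed (median 0.0094). Of 17 other platelet-linked entries there 2 rose and 2 fell (median 0.04, against -0.04 over all 179, of which 11.7% rose and 10.1% fell), of 4 red cell entries 1 rose, and of 6 lymphocyte entries 4 fell. The part that shifts in these cell types play in the members' levels was not tested.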

How the data were processed

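Small RNA libraries were made by the authors from total RNA of PBMCs with the NEBNext kit, per the labels' protocols. The deposited tables hold counts, whole numbers of reads for each miRNA, made once with a human and once with a pig miRNA reference. Among the tools and builds in the submitters' processing notes are Bowtie, FastQC and bcl2fastq, and hg38, GRCh38 and Sscrofa11.1. How reads were counted, shared or filtered is not given there.

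Groups and replicate numbers came from the sample titles. The unfiltered counts were tested with edgeR 4.0.16 under R 4.3.3, with TMM scaling, filterByExpr, a robust quasi-likelihood fit and the replicate number as a block. The design text describes a first sample and another 6 h later. Libraries with the same number deviated together (correlations of 0.146 to 0.672 in the human-reference counts, all 10 over 0.1). Number 4 had the lowest correlation, 0.146 there and 0.129 in the pig-reference counts. In each reference the libraries of 7 of the 10 numbers were each other's best match. On this basis the numbers were taken as pairs. Nothing in the labels names the animals. Standard errors are log2 fold changes divided by the root of F. Alternatives were fits without the block, other scalings, DESeq2 1.42.0, limma 3.58.1 voom, no low-count filter, the filtered counts, and leaving out each number. Ratios and the alternative correlations used log2(CPM + 1) from library totals. Correlations had 100000 permutations. Scripts were tested on simulated data. Likeness and list members followed rules fixed in writing, but the members, lists and rules were chosen with earlier results of these data known. Intervals of reads cover counting error only, since PCR copies carried no molecular identifiers. No mature sequences were used here.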

Additional observations from a re-analysis of the deposited data

Results flagged for a closer look

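In 26 groups of 10 libraries (members and ratios, Control and ICH), 1 had an extreme library whose gap to the next exceeded Dixon's 95% limit. Chance gives about 1 in 20. It was ICH replicate 1 in the log2 ratio of miR-340-5p to miR-340-3p, at 3.34 against 3.97 to 4.63 in the other ICH libraries. The same library had the lowest miR-340-5p and the lowest miR-199b-3p of all 20.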

How the results depend on the processing

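None of the 119 alternative values of the 7 members passed the threshold (smallest adjusted p 0.19), and 20 had the other sign, all close to 0. For miR-191-5p upper-quartile scaling gave a log2 fold change of -0.10, library totals -0.089, DESeq2 -0.012, no low-count filter -0.037 and the filtered counts -0.0046. For miR-340-3p library totals gave -0.020 and upper-quartile scaling -0.033, and the latter gave 0.070 for ssc-miR-191 and 0.023 for ssc-miR-340. Leaving out each number gave -0.052 to 0.024 for miR-191-5p (negative in 7 of the 10 fits), -0.13 to 0.0093 for miR-340-5p (positive without number 1), -0.075 to 0.087 for miR-340-3p (negative without number 8), -0.068 to 0.046 for ssc-miR-191 (positive without number 4) and -0.16 to 0.039 for ssc-miR-340 (positive without number 1). It gave 0.14 to 0.36 for miR-199b-3p and 0.0998 to 0.38 for ssc-miR-199a-3p@, both lowest without number 3 and highest without number 1.

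Without the replicate block 9 of 245 human-reference and 0 of 179 pig-reference miRNAs passed, against 47 and 39 with it; no member's call changed. Without a number the counts were 32 to 61 and 27 to 59, the highest without number 4. The share of rises moved with the scaling, from 32 rising and 15 falling to 15 and 24 with library totals and 18 and 29 with upper-quartile scaling, and in the pig-reference counts from 21 and 18 to 16 and 20 and to 35 and 9.

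Without the pairing (no replicate block) the mean difference in the log2 ratio of miR-340-3p to miR-126-3p was -0.47 as before. A mean difference cannot change when the pairing is dropped, so this value is no check on it. The planned tests of the ratios to miR-126-3p are not given, since its rise was known when they were chosen. Leaving out each number gave -0.59 to -0.49 for the ratio of miR-191-5p to miR-126-3p, -0.70 to -0.47 for miR-340-5p and -0.60 to -0.41 for miR-340-3p. For the ratio of miR-191-5p to miR-425-5p it gave -0.14 to 0.0049, positive only without number 4.

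Correlations with library totals and with the filtered counts were added after seeing the data. In that order, r was -0.363 and -0.362 for miR-191-5p with miR-223-3p, -0.214 and -0.211 with miR-150-5p, -0.101 and -0.212 with miR-199b-3p, -0.124 and -0.194 for miR-340-3p with miR-199b-3p, and 0.0958 and 0.1003 for miR-340-5p with miR-150-5p. It was -0.62 and -0.62 for miR-191-5p with miR-340-5p (-0.05 under TMM), -0.57 and -0.58 for the miR-340 arms (-0.03 under TMM) and 0.51 and 0.54 for miR-191-5p with miR-126-3p (0.14 under TMM). With the filtered counts miR-199b-3p had 0.17 with miR-223-3p and 0.12 with miR-451a. The cause of these shifts was not tested. Depth limits miR-199b-3p most.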

Other observations

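The deposited filter took very different shares of reads from the members. It removed 0.0855% to 0.147% of the reads of miR-191-5p per library, 0.307% to 0.704% of miR-340-5p, 2.13% to 9.82% of miR-340-3p and 14.3% to 43.8% of miR-199b-3p. The rule of the filter is not given in the sources used here. In the filtered counts miR-199b-3p had a log2 fold change of 0.41 (edgeR with the replicate block, adjusted p = 0.214), against 0.28 in the unfiltered counts.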
